A study of Oryza sativa with 9 samples.

Results

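The antioxidant enzymes and peroxidases of rice leaves were followed here through 30 genes, 1 of them known from the study's annotation alone, beside 17905 genes listed for the arrays. They are read by 46 of the 57194 probe sets measured. They were chosen by name, as probe sets assigned to 1 gene whose symbol or synonym marks it as an ascorbate peroxidase (APX), catalase (CAT), superoxide dismutase (SOD), glutathione peroxidase (GPX), glutathione transferase (GST), peroxidase or peroxiredoxin (PRX), monodehydroascorbate reductase (MDHAR) or dehydroascorbate reductase (DHAR). To these were added 3 peroxidase probe sets that the study had singled out as lower in its RNAi plants, 1 of which the names had also found. The criterion the study names is a fold change of more than 2, with no p-value. Together these were 10 APX probe sets of 7 genes, 8 CAT of 2 genes, 8 GST of 6 genes, 6 SOD of 4 genes, 6 of type II peroxiredoxins of 4 genes, 6 of class III peroxidases of 5 genes, and 2 MDHAR of 2 genes. No probe set was matched for GPX or DHAR. Because 8 genes had several probe sets, the 46 are not 46 independent readings, and 14 carry a suffix (_s, _x or _a) by which the array's maker marks probes that can pick up related transcripts.

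Leaf RNA of rice seedlings 21 days old, grown in liquid culture without stress, was hybridised to 9 Affymetrix arrays, 3 for each of 3 groups. WT is the wild type, the japonica variety Zhonghua11 according to the study's methods. The other groups are labelled as overexpression (OE) and RNAi, and the constructs are known from the study. For OE it describes OsHMGB707, a high mobility group protein of the nucleus, expressed from a cDNA of the upland rice IRAT109 under the viral CaMV 35S promoter. For RNAi it describes silencing of the same gene with a hairpin construct under a ubiquitin promoter in a different vector. Each replicate was a pool of seedlings, the transformed line used for the arrays is not named and may be a single one, and no transformed control is among the arrays, so that effects of transformation, selection, vector or insertion cannot be told apart from those of the construct. Values are log2 hybridisation levels, so that a difference of 1 is a 2-fold change, and the number of arrays limits their precision.

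The brighter OsHMGB707 probe set read 12.39, 12.38 and 12.38 in WT and 10.31, 10.43 and 10.03 in RNAi, a fall of 4.38-fold (limma adjusted p = 3.85e-06). It read 12.25, 12.28 and 12.37 in OE, no higher than in WT (difference -0.09, adjusted p = 0.703), so that the arrays did not show the labelled overexpression. By real-time qPCR the study reported the gene higher in several overexpression lines and lower in several RNAi lines than in WT. Which of those lines were on the arrays is not stated. Whether the brighter probe set covers the part of the transcript that the transgene carries was not tested, and differences are given below for the arrays labelled OE. The dimmer OsHMGB707 probe set differed from WT by -0.44 in RNAi (limma adjusted p = 0.286) and by -0.27 in OE (adjusted p = 0.419). Its arrays overlapped those of WT in both groups. Replicate arrays correlated at 0.992 to 0.998 and arrays of different groups at 0.988 to 0.995. Of 16 probe sets of leaf photosynthesis genes, 13 lay above the upper quartile of all probe sets, and the mean of this list stayed between 11.65 and 11.86 on every array. Of 7 root probe sets 5 lay below the lower quartile and of 5 anther and pollen probe sets 2 did, with the rest at intermediate levels. The mean of the anther list was 4.71 to 4.79 in WT, 4.89 to 4.92 in OE and 4.75 to 4.94 in RNAi, that of the root list 4.83 to 4.87, 4.85 to 4.94 and 4.79 to 4.86. No probe set of the 3 lists was called against WT, and 1 for the root gene OsPT11 was called between OE and RNAi (0.34 higher in OE, adjusted p = 0.0496).

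Leaves produce superoxide and hydrogen peroxide as by-products of photosynthesis, photorespiration and respiration. Superoxide dismutases turn superoxide into hydrogen peroxide, and catalases, ascorbate peroxidases and peroxiredoxins remove the peroxide. Monodehydroascorbate reductase returns the oxidised ascorbate to the cycle, and glutathione transferases attach glutathione to reactive or foreign compounds. Class III peroxidases are a separate, large plant family, mostly secreted to the cell wall and vacuole, where they use hydrogen peroxide to oxidise phenolic compounds, for instance in lignin formation, and can also release reactive oxygen.

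Among the members, the differences of more than 2-fold all lay among the class III peroxidases, and the other enzymes differed little between the groups. This contrast partly follows from the choice of probe sets. Of the 6 for class III peroxidases, 3 had been picked by the study on these same arrays, which also listed PRX74. PRX112, chosen by name alone, stayed within 0.06 of WT. Glutathione transferases that the study picked outside the members also exceeded 2-fold (LOC4349190 at -1.03 in OE, LOC4331532 at 1.64 in RNAi). Of the 46 probe sets, 1 passed an adjusted p of 0.05 between OE and WT, the class III peroxidase LOC4328841, which was lower in OE. In that comparison 2.94% of all probe sets passed, 1.69% in the lower direction. Between RNAi and WT 1 of 46 passed, the class III peroxidase LOC_Os07g48020, lower in RNAi, where 0.479% of all probe sets passed, 0.219% in the lower direction. Both were among the 3 probe sets that the study picked on these same arrays, so neither count is independent evidence of a direction. Between OE and RNAi 2 of 46 passed, LOC_Os07g48020, higher in OE, and the glutathione transferase GSTU1, lower in OE, against 6.16% of all probe sets (3.14% higher and 3.02% lower). The members' shares were thus 2.17%, 2.17% and 4.35%, and the first and last lay below those of all probe sets. In a bulk leaf sample, fewer cells of a kind and less RNA per cell cannot be told apart.

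More of the member probe sets showed smaller differences. At an unadjusted p under 0.05 there were 12 members between OE and WT (26.1%, against 16.9% of all probe sets), 8 between RNAi and WT (17.4%, against 12.5%) and 14 between OE and RNAi (30.4%, against 21.8%). These counts include the 3 peroxidase probe sets that the study picked on these arrays. Without the class III peroxidases they were 11, 4 and 12 of 40 (27.5%, 10.0% and 30.0%). The share for RNAi against WT then lay below that of all probe sets. The 3 OE arrays did not overlap the 3 WT arrays for 20 members (43.5%, against 23.3% of all probe sets). OE was lower for 15 of the 20, where 12.0% of all probe sets were lower without overlap. Among these 15 were 6 of the 8 CAT and 4 of the 10 APX probe sets, most of them repeat readings of CATB and APX2. Also among them were 2 class III peroxidase probe sets that the study picked. The 15 are thus not independent readings spread over the members. RNAi and WT did not overlap for 15 members (32.6%, against 16.3% of all), 12 of them lower in RNAi, where 7.99% of all probe sets were lower without overlap. The 12 include the 3 probe sets picked by the study. Without the class III peroxidases RNAi and WT did not overlap for 11 of 40 (27.5%), with RNAi lower for 9. Of these 9, 5 were CAT probe sets, repeat readings of 2 genes. OE and RNAi did not overlap for 15 members (32.6%, against 23.2% of all). The median difference from WT over the members was -0.03 in OE and -0.05 in RNAi, beside 0.02 and 0.00 over all probe sets. Of the 46 members 32 lay above the upper quartile of all probe sets by mean level, and 43 above the median. The shares of all probe sets therefore rest largely on dimmer ones, and shares at matched levels were not tested.

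**Figure D1:**
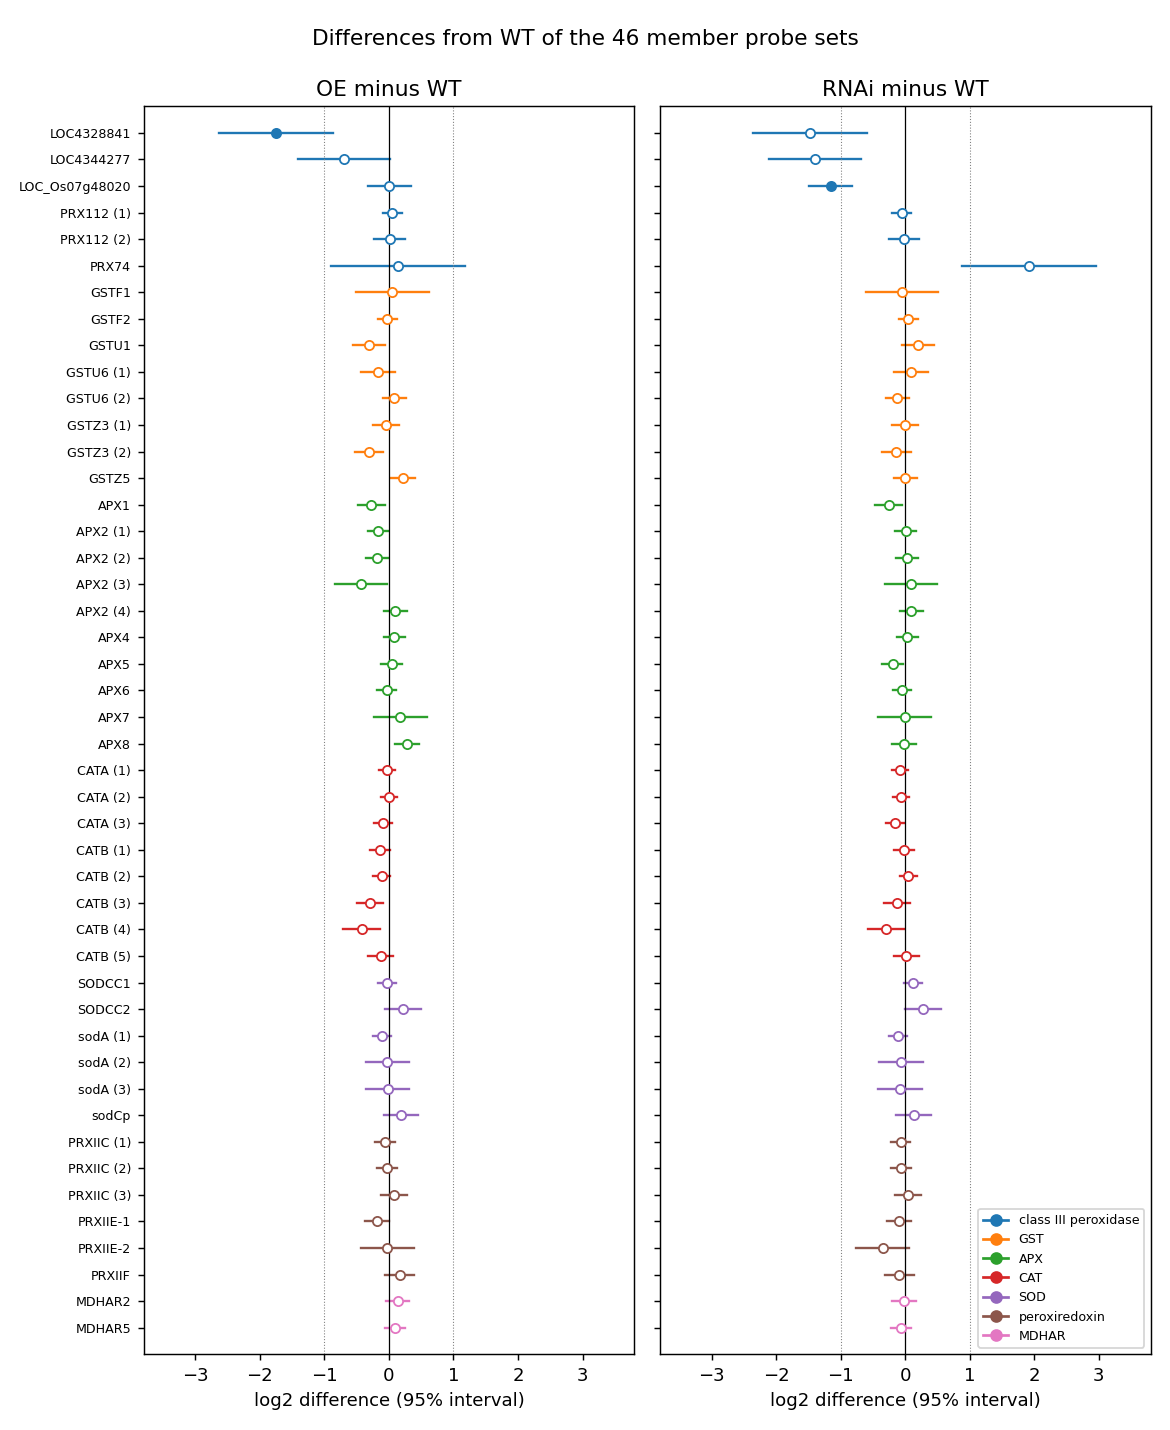
Log2 difference from WT with its 95% interval for each of the 46 member probe sets, in OE (left) and RNAi (right), n = 3 arrays per group. Colours mark the enzyme family, filled points passed an adjusted p of 0.05, dotted lines mark a 2-fold difference, and numbers after a name separate probe sets of the same gene. In each panel 1 point is filled, and points beyond the dotted lines occur only among the class III peroxidases.

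LOC_Os07g48020 is named from the study's annotation, since no gene was listed for its probe set in the platform table, and encodes a class III peroxidase by the same source. It read 11.43, 11.44 and 11.23 in WT, 11.60, 11.34 and 11.18 in OE, and 10.05, 10.04 and 10.54 in RNAi. All 3 RNAi arrays lay below every other array, while WT and OE overlapped. The level in RNAi was 2.22-fold lower than in WT (log2 difference -1.15 ± 0.15 SE, 95% interval -1.48 to -0.82, adjusted p = 0.00867) and 2.24-fold lower than in OE (adjusted p = 0.00214). OE and WT differed by 0.01, with an interval from -0.32 to 0.34. The difference between OE and RNAi passed under all 17 other settings tried, with adjusted p from 0.000949 to 0.0338. That between RNAi and WT was lost without WT replicate 2 (adjusted p = 0.056), without RNAi replicate 2 (0.0524) and without moderated variances (0.143).

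LOC4328841, which the study lists as LOC_Os02g14430, read 10.70, 10.16 and 9.98 in WT, 8.71, 9.14 and 7.75 in OE, and 8.14, 8.74 and 9.52 in RNAi. Each WT array was above all 6 arrays of the transformed plants, and OE and RNAi overlapped. The level in OE was 3.36-fold lower than in WT (-1.75 ± 0.40 SE, interval -2.63 to -0.86, adjusted p = 0.0483). That in RNAi was 2.79-fold lower, a difference that did not pass (-1.48, interval -2.36 to -0.60, adjusted p = 0.169). OE and RNAi differed by -0.27, with a wide interval from -1.15 to 0.61. The call in OE stood close to the threshold and was lost without any 1 of WT replicates 1, 2 and 3 (adjusted p 0.143, 0.136 and 0.116), OE replicates 1 and 3 (0.118 and 0.112) or RNAi replicate 2 (0.0844). A second probe set of the gene, with an _x suffix and outside the members, gave -1.58 for OE minus WT (adjusted p = 0.059) and -1.50 for RNAi minus WT (adjusted p = 0.144), and the former passed without RNAi replicate 1 or 3 (0.0408 and 0.0291).

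LOC4344277, listed by the study as LOC_Os07g48010, read 7.88, 8.22 and 7.91 in WT, 7.67, 7.41 and 6.83 in OE, and 6.83, 5.81 and 7.16 in RNAi. Here too every WT array exceeded every array of the transformed plants. The differences from WT were -0.70 in OE (interval -1.41 to 0.01, adjusted p = 0.303) and -1.40 in RNAi (interval -2.11 to -0.69, adjusted p = 0.113), and neither passed. The fall in RNAi was 2.64-fold, so that it met the study's 2-fold criterion, as did that of LOC4328841 (2.79-fold). By qPCR of genes it had listed, the study reported several lower in RNAi lines than in WT. In the reference gene table LOC4344277 stands next to PRX112, with 0 genes between them. The study's locus number for LOC_Os07g48020 is close to that of LOC4344277. With no gene listed for its probe set, its place in the gene table was not compared. PRX112, another class III peroxidase gene, had 2 probe sets, both within 0.06 of WT in both groups: the brighter read 7.86 to 7.91 in WT, 7.86 to 8.04 in OE and 7.80 to 7.86 in RNAi.

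PRX74 went the other way. It read 7.73, 6.16 and 6.48 in WT, 6.76, 7.37 and 6.67 in OE, and 9.69, 8.20 and 8.24 in RNAi. The RNAi arrays were all above the other 6, and WT and OE overlapped. The mean in RNAi was 3.79-fold above WT, the largest difference from WT among the members, yet with an SD of 0.83 in WT and 0.85 in RNAi it did not pass (1.92 ± 0.46 SE, interval 0.88 to 2.96, adjusted p = 0.132). Against OE the difference stood just short of the threshold (-1.78 for OE minus RNAi, adjusted p = 0.0531). It passed without WT replicate 1 (adjusted p = 0.0308), the highest of the WT arrays. The study had listed this probe set from these arrays as well.

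**Figure D2:**
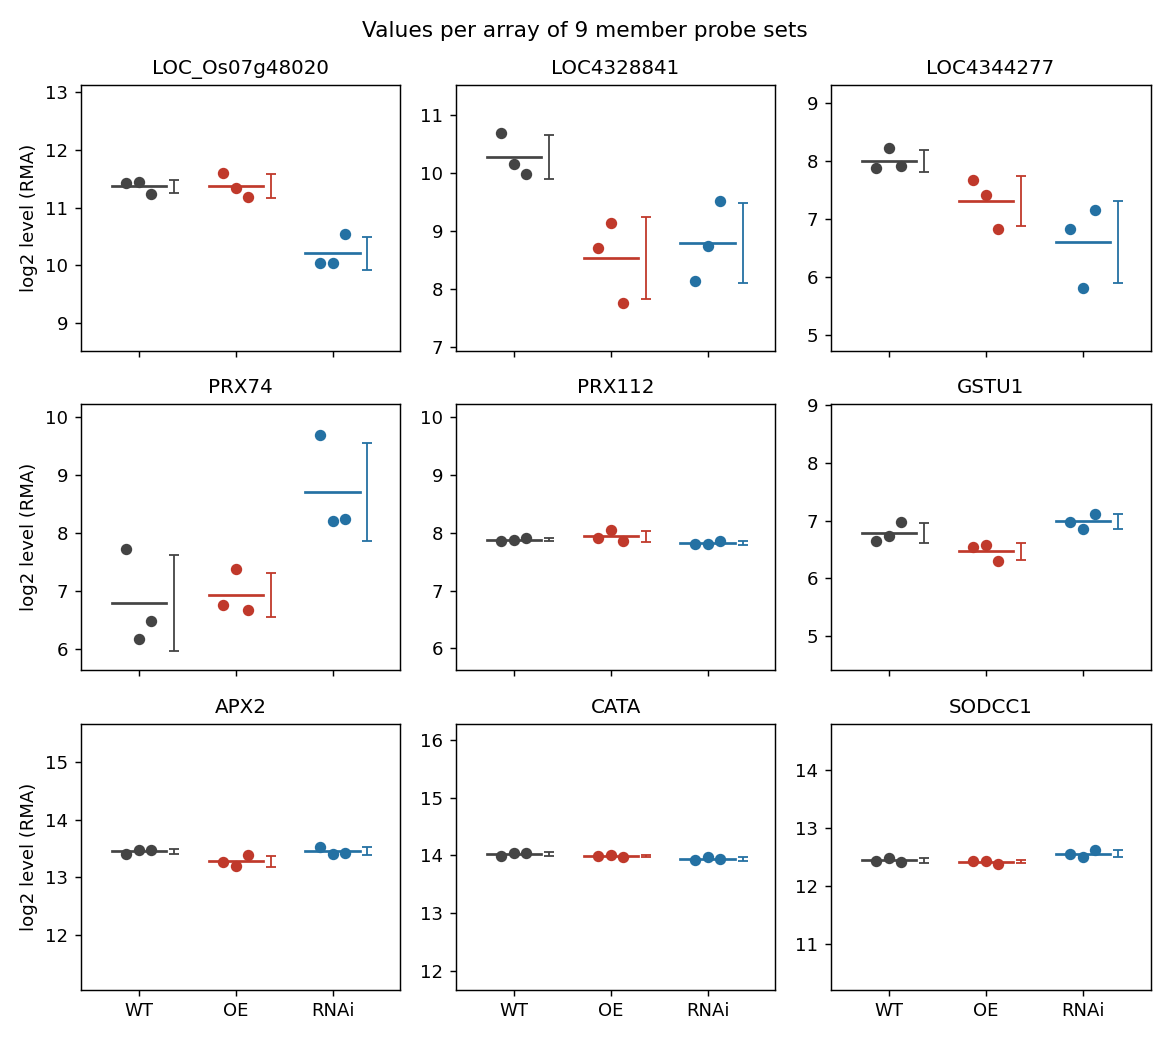
Log2 level on each of the 9 arrays for 9 member probe sets, with the group mean (line) and SD (bar, n = 3); all axes span the same log2 range, each placed at the probe set's own level. The RNAi arrays of LOC_Os07g48020 lie at 10.04 to 10.54, below the other 6, those of PRX74 lie at 8.20 to 9.69, above the other 6, and the arrays of CATA and SODCC1 lie close together in all groups.

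Among the members, the class III peroxidase probe sets also varied most between replicates of 1 group. Their median within-group SD was 0.35, beside 0.10 for the other 40 members and 0.11 for all probe sets, and 3 of the 6 exceeded 0.4, as 1.47% of all probe sets did. PRX74 had an SD of 0.72, higher than 99.8% of all probe sets, LOC4328841 one of 0.61 and LOC4344277 one of 0.49. These 3 had all been listed by the study from the same arrays, so their spread is no independent trait of the family. LOC_Os07g48020 and PRX112 were the steadier ones, at or below 0.22. The PRX112 probe sets, chosen by name alone, had SDs of 0.141 and 0.058. The catalases were the steadiest family, with a median SD of 0.05. Differences of like size therefore had unlike precision: the 95% interval lay within a 2-fold change in either direction for all 40 other members in each comparison, but for 3, 2 and 2 of the 6 class III peroxidases (OE against WT, RNAi against WT, OE against RNAi). Of all probe sets 98.1%, 98.2% and 96.8% had such an interval.

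**Figure D3:**
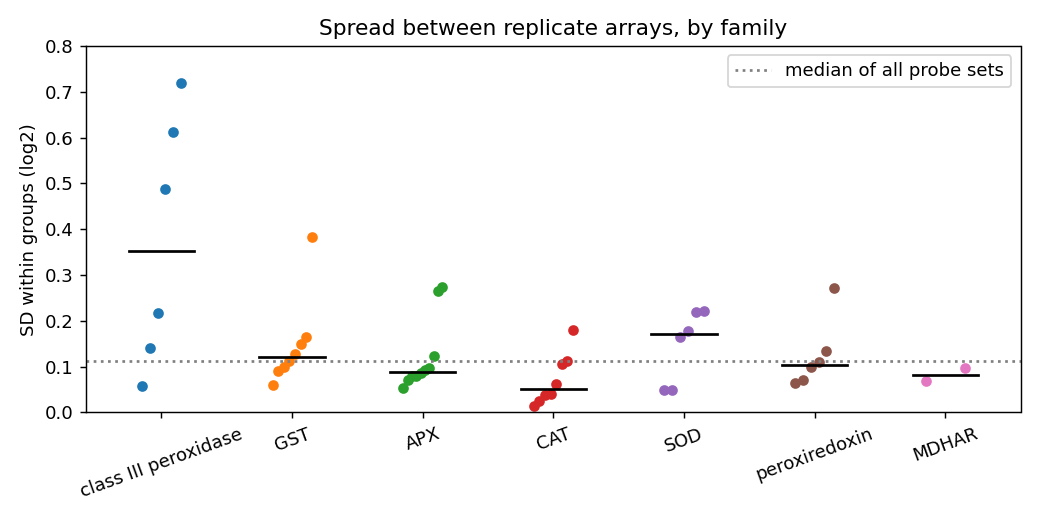
Within-group SD (log2) over the 9 arrays for each member probe set by family, with the family median (line) and the median of all probe sets, 0.11 (dotted). The class III peroxidases reach 0.72, while no other family exceeds 0.382.

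Among the superoxide dismutases nothing passed. SODCC2, a cytosolic copper/zinc enzyme, read 11.62, 11.64 and 11.63 in WT, 11.85, 11.95 and 11.74 in OE, and 11.61, 11.91 and 12.20 in RNAi. The OE arrays were all higher than WT, whereas RNAi overlapped it, and the differences were 0.22 (adjusted p = 0.427) and 0.28 (adjusted p = 0.403). The other cytosolic copper/zinc enzyme, SODCC1, differed from WT by -0.03 and 0.11, and the chloroplast enzyme sodCp by 0.18 and 0.13. The brightest probe set for sodA, the mitochondrial manganese enzyme, differed by -0.10 in both groups, and the other 2 probe sets by no more than 0.08 in size.

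The 2 catalase genes, which break down peroxide in peroxisomes, were represented by 8 probe sets. For CATB all 5 were lower in OE than in WT without overlap of the groups, by 0.11 to 0.42 on the log2 scale, and none passed (adjusted p from 0.123 to 0.51). The probe set with the largest difference read 10.35, 10.44 and 10.41 in WT, 9.71, 10.06 and 10.15 in OE, and 10.24, 10.18 and 9.87 in RNAi. Its differences from WT were -0.42 in OE (interval -0.70 to -0.14, adjusted p = 0.123) and -0.30 in RNAi (adjusted p = 0.373). The 5 share the gene, and 3 of them carry an _s or _x suffix, so they count as readings of 1 transcript. Another of the 5, at -0.29, passed in OE once OE replicate 1 was left out. CATA read 13.99, 14.04 and 14.04 in WT, 13.99, 14.00 and 13.98 in OE, and 13.92, 13.98 and 13.93 in RNAi on its brightest probe set. The 3 CATA probe sets differed from WT by at most 0.16 in both groups, and RNAi lay below WT without overlap on each.

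Ascorbate peroxidases gave small differences in both directions. The cytosolic APX1 read 12.28, 12.50 and 12.42 in WT, 12.23, 12.04 and 12.12 in OE, and 12.28, 12.17 and 11.97 in RNAi. Both transformed groups were at or below the lowest WT array, with differences of -0.27 in OE (adjusted p = 0.179) and -0.26 in RNAi (adjusted p = 0.309). APX2, also cytosolic, read 13.40, 13.48 and 13.47 in WT, 13.27, 13.19 and 13.38 in OE, and 13.53, 13.40 and 13.43 in RNAi on its brightest probe set. OE was below WT without overlap there (-0.17, adjusted p = 0.264) and on 2 more of the gene's 4 probe sets (-0.19 and -0.43), while the fourth, a dim one, differed by 0.10. APX8, of the chloroplast thylakoid, was the one ascorbate peroxidase whose OE arrays were all above WT: it read 11.39, 11.16 and 11.39 in WT, 11.58, 11.52 and 11.68 in OE, and 11.30, 11.36 and 11.23 in RNAi. Its difference was 0.28 against WT (adjusted p = 0.119) and 0.30 against RNAi (adjusted p = 0.0648), and the latter passed under 2 of the other settings. APX4, the peroxisomal form, and the organellar APX5, APX6 and APX7 differed from WT by no more than 0.20 in either group. APX5 and APX6 are neighbours in the gene table.

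MDHAR2 and MDHAR5, which recycle ascorbate, differed from WT by 0.14 and 0.09 in OE and by -0.02 and -0.07 in RNAi, with no call. The type II peroxiredoxins, which reduce peroxides through a reactive cysteine, had no call either. The brightest PRXIIC probe set, for the cytosolic form, differed by -0.06 and -0.07. PRXIIE-1 was lower in OE than in WT without overlap (-0.19, adjusted p = 0.283). The largest peroxiredoxin difference was that of PRXIIE-2 in RNAi (-0.35, interval -0.76 to 0.06, adjusted p = 0.468), whose arrays read 9.82, 9.35 and 9.52 in WT and 9.02, 9.57 and 9.05 in RNAi and overlapped.

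**Figure D4:**
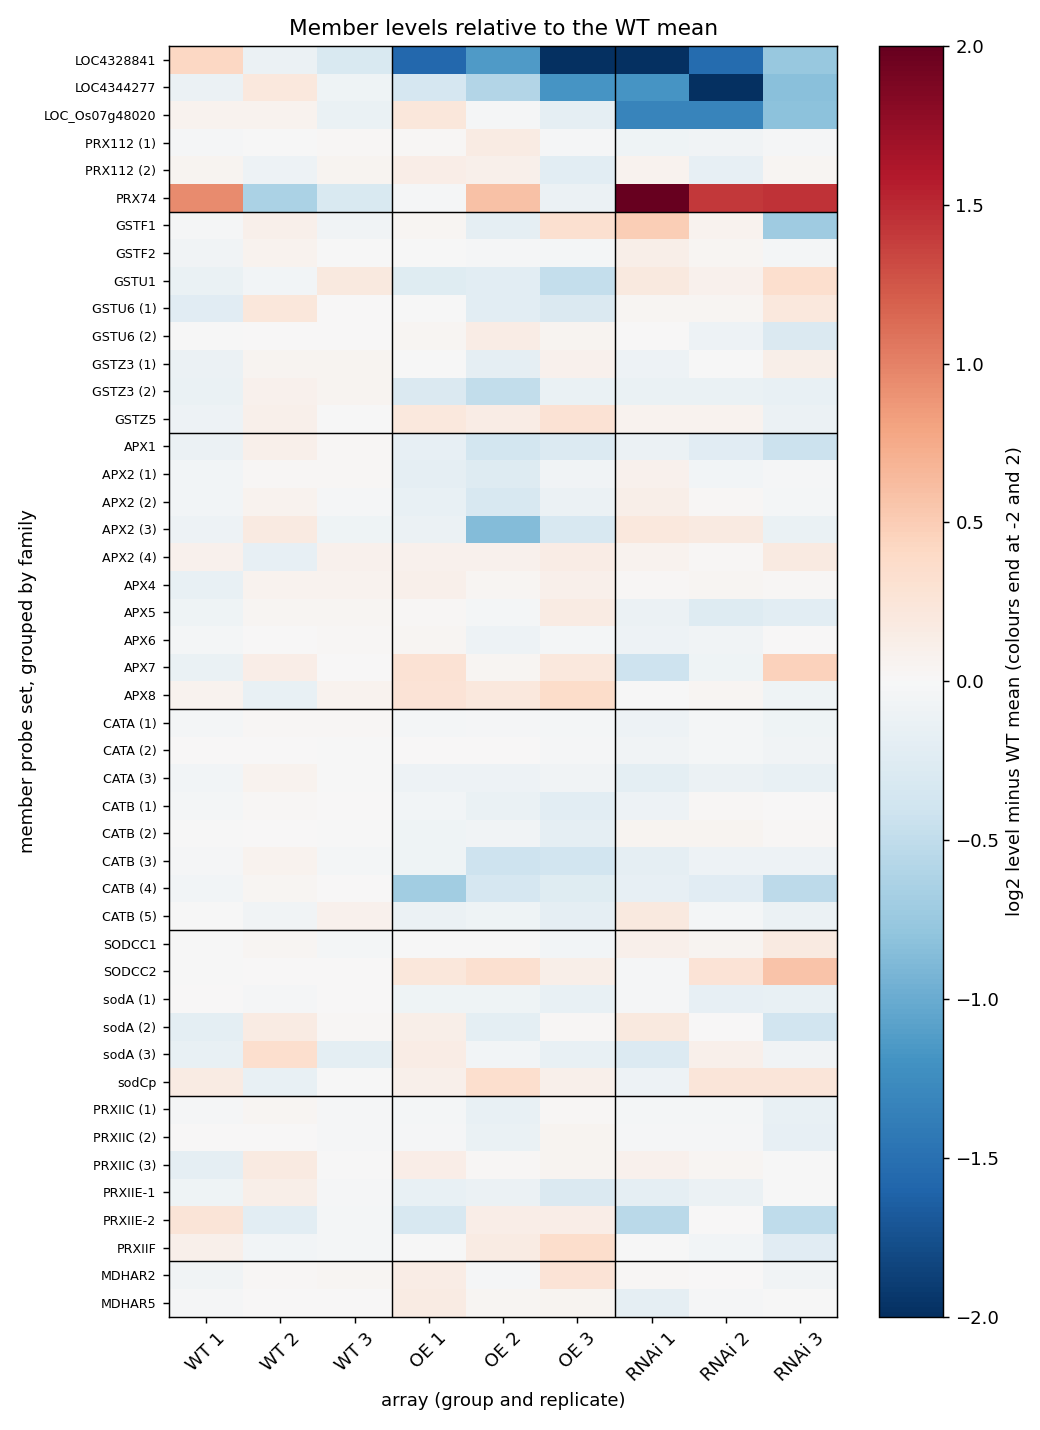
Log2 level of each member probe set (rows, grouped by family) on each of the 9 arrays (columns) minus its WT mean, with colours ending at differences of -2 and 2. Strong colours are limited to the class III peroxidases LOC4328841, LOC4344277, LOC_Os07g48020 and PRX74, and the 5 CATB rows are pale blue in OE.

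GSTU1, a glutathione transferase of the tau class, which in plants mainly handles foreign compounds, was the one member outside the class III peroxidases that passed in any comparison. It read 6.64, 6.73 and 6.97 in WT, 6.54, 6.57 and 6.30 in OE, and 6.97, 6.86 and 7.12 in RNAi. All 3 OE arrays were below the WT and RNAi arrays, which overlapped each other. The differences from WT were -0.31 in OE (adjusted p = 0.186) and 0.20 in RNAi (adjusted p = 0.491). Between OE and RNAi the difference was -0.51 ± 0.11 SE (1.43-fold, interval -0.76 to -0.27, adjusted p = 0.0248). It was lost without OE replicate 1 (adjusted p = 0.064), OE replicate 3 (0.0798) or RNAi replicate 3 (0.0721). It was also lost without moderated variances (0.0953) and with the replicate number as a block (0.0563). The phi-class GSTF1 and GSTF2, the zeta-class GSTZ3 and GSTZ5 and the tau-class GSTU6 differed from WT by 0.31 or less in size, with no call. GSTU6 is the gene of that name in the reference gene table, and the study gives the name to a different gene. The brightest GST probe set, for GSTF2, read 13.04 to 13.18 in WT, 13.07 to 13.10 in OE and 13.07 to 13.22 in RNAi.

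The study annotated further probe sets as peroxidases or glutathione transferases that the naming rule does not reach, and it selected them on these arrays, so that their directions are descriptions. LOC4337484, a peroxidase, read 11.28, 10.77 and 10.82 in WT, 9.33, 9.80 and 8.46 in OE, and 10.30, 11.04 and 11.71 in RNAi. It was 3.38-fold lower in OE than in WT (-1.76, adjusted p = 0.041), and RNAi straddled WT (0.06, adjusted p = 0.966). That call was lost without any 1 of WT replicates 1, 2 and 3, OE replicates 1 and 3 or RNAi replicate 2 (adjusted p from 0.0745 to 0.126). LOC9272450, also a peroxidase, read 5.96, 6.12 and 5.84 in WT, 4.03, 4.71 and 4.40 in OE, and 7.42, 5.71 and 5.71 in RNAi. Its OE values lay near the lower quartile of all probe sets, 4.37. It was lower in OE than in RNAi (-1.90, adjusted p = 0.0211), a call lost without OE replicate 1 or 3 (0.0867 and 0.0617). With single arrays left out that difference ranged from -2.19 to -1.33. OE differed from WT by -1.59 (adjusted p = 0.0661), which passed without RNAi replicate 1 (0.00124). The glutathione transferase LOC4349190 read 8.20, 8.16 and 8.04 in WT, 7.0, 7.23 and 7.07 in OE, and 8.08, 8.00 and 7.61 in RNAi. It was 2.05-fold lower in OE than in WT (adjusted p = 0.00195), with adjusted p from 0.000341 to 0.0329 under all 17 other settings. Another glutathione transferase, LOC4331532, read 7.17, 6.02 and 5.70 in WT, 5.91, 6.63 and 5.95 in OE, and 8.64, 7.77 and 7.39 in RNAi. Its RNAi arrays were all above the rest, as those of PRX74 were, but only the difference between OE and RNAi passed (-1.78, adjusted p = 0.0311), and it was lost without WT replicate 2, OE replicate 1 or 3, or RNAi replicate 1 or 2 (adjusted p from 0.05 to 0.113). The difference between RNAi and WT, at 1.64 (adjusted p = 0.137), passed without WT replicate 1 (0.0482).

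Other redox genes were taken from lists by symbol, 83 probe sets in all. Between OE and WT 4 of the 83 passed (4.82%, against 2.94% of all probe sets), between RNAi and WT 0 (9 at an unadjusted p under 0.05, or 10.8%, against 12.5% of all), and between OE and RNAi 14, or 16.9%, beside 6.16% of all probe sets. Most of the latter were metallothioneins, small cysteine-rich proteins that bind metals and react with hydroxyl radicals. Of their 17 probe sets 10, of the genes MT2A, MT2B, MT2C and MT4C, were called higher in OE than in RNAi, where 3.14% of all probe sets were called higher, and the median difference over the list was 0.62. The probe set of MT2C with the largest difference from WT in OE read 12.70, 12.86 and 12.78 in WT, 13.51, 13.35 and 13.39 in OE, and 12.89, 12.57 and 12.23 in RNAi. OE was above both other groups without overlap, by 0.64 against WT (adjusted p = 0.0419) and 0.85 against RNAi (adjusted p = 0.0076). MT4C read 4.92, 5.46 and 5.11 in WT, 6.00, 6.35 and 5.84 in OE, and 5.21, 5.15 and 5.39 in RNAi. It was 0.90 higher in OE than in WT (adjusted p = 0.0163). The MT2C call against WT was lost without any 1 of the WT or OE arrays or RNAi replicate 2 (adjusted p from 0.0745 to 0.143), and that of MT4C without WT replicate 1 or 3 or OE replicate 1 (0.0554 to 0.0799). MT1A, MT1B and MT4A were not called. Several of the MT2 probe sets carry an _x or _a suffix and may read the same transcripts. The count of 10 fell to 3 without OE replicate 1, 4 without OE replicate 3 and 3 without RNAi replicate 2.

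Germins and germin-like proteins are cell wall proteins, some with oxalate oxidase or superoxide dismutase activity. Of 12 probe sets 10 were lower in OE than in RNAi on average, as 28073 of all 57194 were, with a median of -0.63. None of the 12 passed (limma, 7 at an unadjusted p under 0.05, or 58.3%, against 21.8% of all probe sets). One of the 2 probe sets of GLP2 read 9.65, 9.69 and 9.75 in WT, 8.76, 8.93 and 8.20 in OE, and 8.96, 9.20 and 9.86 in RNAi. It was lower in OE than in WT (-1.07, adjusted p = 0.0386), a call lost without any 1 of WT replicates 1, 2 and 3, OE replicates 1 and 3 or RNAi replicate 2 (adjusted p from 0.0669 to 0.146). The other differed by -1.20 (adjusted p = 0.0719). GER4 had the largest difference of the list in RNAi (1.48 above WT, adjusted p = 0.135). GLDH1, which makes the last step of ascorbate synthesis, read 8.43, 8.56 and 8.52 in WT, 8.24, 8.03 and 8.19 in OE, and 8.56, 8.63 and 8.47 in RNAi. It was lower in OE than in WT (-0.35, adjusted p = 0.0447) and than in RNAi (-0.40, adjusted p = 0.0154). The first call was lost without any 1 of the WT or OE arrays or RNAi replicate 1 or 2 (adjusted p from 0.0541 to 0.168), and leaving out RNAi replicate 2 raised the adjusted p of the second to 0.061.

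Among 44 probe sets of thioredoxins, glutaredoxins and their reductases, which reduce disulphide bonds, 0 passed in OE or RNAi against WT (limma, 8 and 4 at an unadjusted p under 0.05, or 18.2% and 9.09%, against 16.9% and 12.5% of all probe sets). Between OE and RNAi 3 passed (6.82%, near the 6.16% of all probe sets): GRXS2 (-0.62, adjusted p = 0.0199), GRXS6 (-0.28, adjusted p = 0.0217) and 1 of the 3 probe sets of OsTrx18 (0.65, adjusted p = 0.0294). The last read 7.50, 7.58 and 7.67 in WT, 7.50, 7.42 and 7.70 in OE, and 7.08, 7.08 and 6.52 in RNAi. For OE minus RNAi the other OsTrx18 probe sets gave -0.11 (adjusted p = 0.447) and 0.22 (0.0702), with no call. Each of these 3 calls was lost without OE replicate 1 (adjusted p from 0.0809 to 0.0856). The calls named in brackets were also lost without OE replicate 2 (GRXS2, GRXS6), OE replicate 3 (OsTrx18), RNAi replicate 2 (GRXS2, GRXS6), RNAi replicate 3 (GRXS6) or WT replicate 2 (OsTrx18), at adjusted p from 0.0521 to 0.0978. The largest difference from WT in the list, that of the glutaredoxin GRXC1 (1.00 in OE, adjusted p = 0.495), came with values from 7.26 to 10.00 within RNAi alone. The glutathione synthesis gene gcs, the NADPH oxidase gene OsrbohB, the haem oxygenase genes HO1 and HO2 and the SOD copper chaperone genes CCS and CCS1 stayed within 0.16 of WT in both groups. The alternative oxidase gene AOX1 was at -0.30 for OE minus WT (adjusted p = 0.211) and at -0.43 for RNAi minus WT (adjusted p = 0.166).

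**Figure D5:**
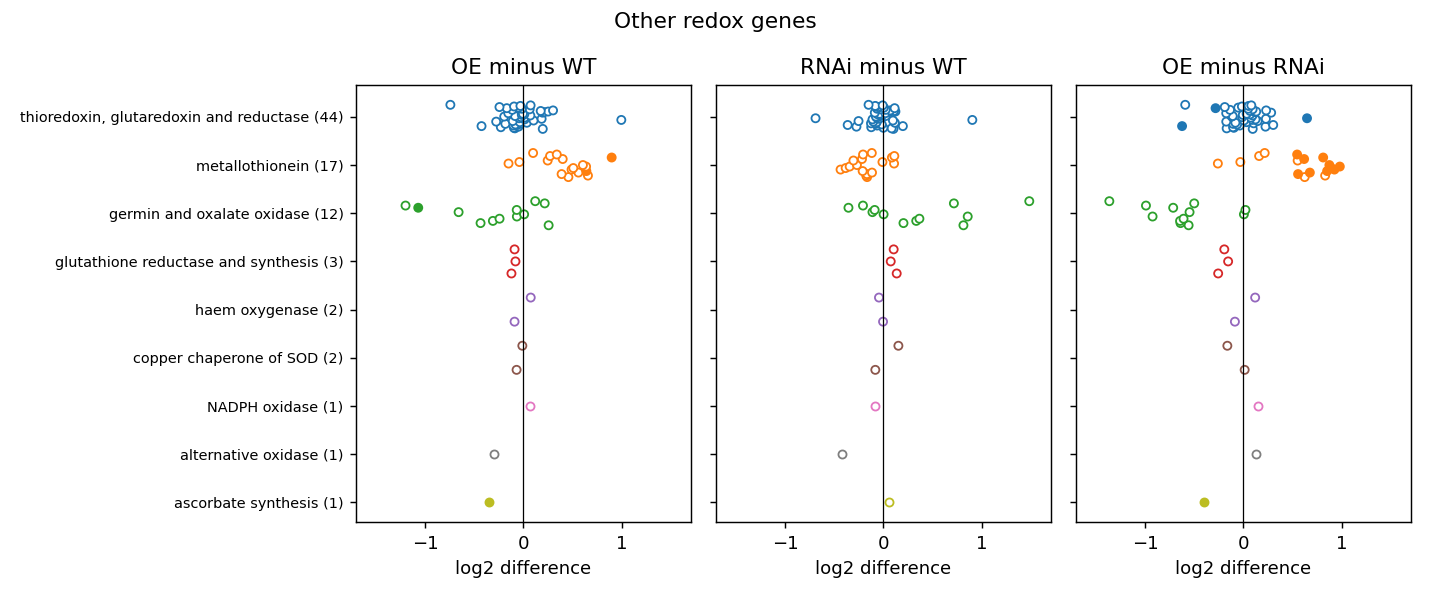
Log2 differences between groups for the 83 probe sets of other redox genes, 1 point per probe set, with the number of probe sets after each list's name; filled points passed an adjusted p of 0.05. In the OE minus RNAi panel 10 of the 17 metallothionein points are filled and lie above 0, and 10 of the 12 germin points lie below 0 with none filled.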

How the data were processed

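Leaf RNA of 9 seedling pools was hybridised to Affymetrix rice arrays. The authors deposited log2 values, 1 per probe set and array; per their processing notes these came from RMA, which corrects background, normalises quantiles and summarises probes, and which draws the distributions of the arrays together. The sources used here name no version. Of 57381 probe sets, 187 controls were left out and 57194 tested. Groups and replicate numbers came from the labels. Names came from the platform annotation (22436 probe sets with 1 gene, 95 with several), joined to a reference gene table (assembly ASM3414082v1).

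Group means were estimated jointly from the 9 arrays in limma 3.58.1 (lmFit and eBayes, R 4.3.3; 6 residual and 3.78 prior degrees of freedom). Contrasts were two-sided, with Benjamini-Hochberg adjustment over all 57194 probe sets in each of 3 comparisons, and a call is an adjusted p under 0.05. The 95% intervals are for single probe sets and not adjusted. The 3 arrays of a group are pools, so p-values measure the spread between pools. OE against WT and RNAi against WT share the WT arrays. The fitting code was tested on simulated data.

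The members and lists were chosen with earlier results of these data known. Named were the study's 3 peroxidase probe sets, members called in any comparison, per family the brightest probe set and those with the largest difference from WT in OE and in RNAi, and from the other lists those called or with the largest difference; remaining members were described for completeness. From the other redox lists, matches that were other proteins were dropped before their values were seen: 3 trithorax probe sets, and the 7 matches of a polyphenol and ascorbate oxidase list, which left it empty; likewise 1 from the leaf list. The alternatives tried were a fit of only the arrays compared, an intensity trend with a robust prior, no moderation, centring on array medians, a further quantile normalisation, a filter at the median mean, keeping controls, the replicate number as a block, and leaving out each array. No sequence is shown because none was used here.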

Additional observations from a re-analysis of the deposited data

Results flagged for a closer look

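The test between OE and RNAi is also the test of whether their differences from WT are equal, since WT cancels. By it the difference of LOC_Os07g48020 from WT was 1.16 higher in OE than in RNAi on the log2 scale (adjusted p = 0.00214), with 3 of 3 RNAi arrays below every OE and WT array. The difference of GSTU1 from WT was -0.51 in OE relative to RNAi (adjusted p = 0.0248), with 3 of 3 OE arrays below every RNAi array. The GSTU1 call was lost under 5 of the 17 alternatives. No other of the 46 members passed this test.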

How the results depend on the processing

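Of the member calls, that of LOC_Os07g48020 between OE and RNAi stood under all 17 alternatives. The number of members called between OE and WT went from 1 to 0 with an intensity trend and robust prior, no moderation, a further quantile normalisation and the replicate block, and ranged from 0 to 1 with single arrays left out (0 without any 1 of the WT arrays, OE replicate 3 or RNAi replicate 2). Between RNAi and WT it went from 1 to 0 with no moderation, and from 0 to 1 with single arrays left out (0 without WT replicate 2 or RNAi replicate 2). Between OE and RNAi it went from 2 to 4 when dim probe sets (mean under the median) were dropped, as PRX74 and APX8 passed, and from 1 to 3 with single arrays left out (1 without OE replicate 1 or 3 or RNAi replicate 3). With no moderation it stayed at 2, but the GSTU1 call (adjusted p = 0.0953) gave way to one of CATA. Over all probe sets, calls between OE and WT went from 1680 to 731 with no moderation and 937 with the replicate block, and from 527 to 1939 with single arrays left out (926, 579 and 527 without WT replicates 1, 2 and 3, 664 without OE replicate 1). Between RNAi and WT they went from 274 to 167 in the pairwise fit and 69 with no moderation, and from 118 to 512 with single arrays left out (139 and 118 without WT replicates 2 and 3, 512 and 141 without RNAi replicates 1 and 2). Between OE and RNAi they went from 3521 to 1805 in the pairwise fit and 1623 with no moderation, and from 1693 to 4141 with single arrays left out (1693 and 2238 without OE replicates 1 and 3, 1881 without RNAi replicate 2). Calls between OE and WT were higher in OE in 42.6% of cases, in 32.6% with arrays centred on their medians, and in 53.3%, 52.8% and 50.3% without WT replicate 3, OE replicate 2 and WT replicate 2. The 10 metallothionein calls between OE and RNAi, an alternative chosen after seeing the data, became 3 in the pairwise fit and 0 with no moderation, and 3 to 13 with single arrays left out. Where other alternatives than leaving out an array ended a call, the cause was not tested.

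Same-numbered arrays did not visibly deviate together (correlations of deviations from -0.328 to 0.116, over 0.1 in 2 of 9 pairs). For arrays of different numbers the range was -0.211 to 0.283. The values thus gave no sign of pairing by number, but with 3 arrays per group they cannot exclude it. With the replicate block 0, 1 and 2 members were called in the 3 comparisons, and the GSTU1 call gave way (adjusted p = 0.0563) to one of PRX74 (0.0376).

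Differences close to 0 changed sign: with centring APX2 (RNAi minus WT, -0.0201) and LOC_Os07g48020 (OE minus WT, -0.0241), and with a further quantile normalisation SODCC1 (OE minus WT, 0.0112), MDHAR2 (RNAi minus WT, 0.0054) and PRXIIC (OE minus RNAi, -0.0183). With single arrays left out, the sign changed within these ranges. For OE minus WT they were -0.17 to 0.61 for PRX74, -0.11 to 0.10 for LOC_Os07g48020, -0.0576 to 0.0131 for GSTF2 and -0.44 to 0.30 for LOC4331532. For RNAi minus WT they were -0.0314 to 0.03 for APX2, -0.0509 to 0.0116 for MDHAR2, -0.29 to 0.42 for LOC4337484 and -0.26 to 0.59 for LOC9272450. For OE minus RNAi they were -0.0967 to 0.0554 for APX1, -0.60 to 0.12 for LOC4328841 (-0.39 to 0.30 for its _x probe set), -0.0248 to 0.0616 for PRXIIC, -0.2367 to 0.0088 for CATB and -0.2082 to 0.082 for SODCC2. None of these differences was called. The deposited values carry no measure of signal over background, so no bound could be set for dim probe sets; 2 members lay below the lower quartile of all probe sets.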

Other observations

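Some of the replicate spread recurred across genes. The following genes were chosen after their values were seen. In LOC4328841, LOC4344277, LOC4337484 and both probe sets of GLP2, OE replicate 3 was the lowest OE array and RNAi replicate 3 the highest RNAi array. In PRX74, LOC4331532 and the germin gene GER5 (12.96, 11.84 and 11.53 in WT, 12.24, 12.71 and 12.04 in OE, 13.20, 12.82 and 12.46 in RNAi), WT replicate 1, OE replicate 2 and RNAi replicate 1 were the highest of their groups. What these arrays share was not tested.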
